A study of Mus musculus with 768 samples.

Results

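Sox10, Egr2, Pou3f1, Pou3f2, Nab1, Nab2, Zeb2, Yy1, Sox2 and Nfatc4 are transcription factors and cofactors that set Schwann cell (SC) identity or act on myelination. All 10 were found by symbol among the 25700 genes of a table of reads in single mouse SCs, and each had 1 row. They were followed by level, by share of cells and by how they were read together, across myelinating and non-myelinating cells on 2 plates.

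Sox10 is needed along the whole SC lineage and maintains its identity. In SCs that begin to myelinate, Sox10 and the POU factors Pou3f1 (Oct6) and Pou3f2 (Brn2) switch on Egr2 (Krox20), the driver of myelin protein and lipid genes, which works with the corepressors Nab1 and Nab2. Yy1, Zeb2 and Nfatc4 promote this step, whereas Sox2 holds SCs in an immature state and opposes it.

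Cells came from sciatic nerves of mice at postnatal day 60 (P60), and no group was treated or mutant. All animals carried P0Cre, an eYFP reporter at Rosa26 and a DsRed transgene driven by the beta-actin promoter, and single cells were sorted by eYFP for the Smart-Seq2 protocol. P0Cre leaves eYFP in every descendant of a cell in which the Cre was once active, so the gate marks lineage and not the present state. The 2 plates held different mice, with the sexes mixed, and are the only replicates, so a class mean rests on n = 2.

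The table held 74280540 reads on plate 1 and 209404659 on plate 2. Of 384 cells per plate, 340 and 334 had 1500 or more detected genes and were kept. Their median was 158689 reads and 3442 genes on plate 1 against 452484 reads and 2295 genes on plate 2, so the deeper plate detected fewer genes. No cell name occurred in both plates. Clusters were built without the 10 factors and without the target, partner and brake genes described later, and were then named from other markers. This gave 152 and 73 myelinating (mSC-like) cells, 173 and 248 non-myelinating, Remak (nm(R)SC-like) cells and 28 cells in no class. Cluster 3 held 61 and 48 of the nm(R)SC-like cells. Its mean standardised level of the nm(R)SC markers was 0.06, beside 0.224 to 0.384 in the other nm(R)SC-like clusters, and 6 of the 9 reached 50 CPM. That of the mSC markers was -0.481, so cluster 3 was named more by low mSC markers than by high nm(R)SC ones. The 10 mSC naming markers summed to 73380 and 71860 CPM (reads of a gene per 1000000 reads of the summed class) in mSC-like cells against 6705 and 7357 CPM for nm(R)SC-like cells. The 9 nm(R)SC naming markers summed to 117 and 206 CPM in mSC-like cells against 3558 and 2676 CPM for nm(R)SC-like cells.

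Of the lists for other cell types that the gate could hold, the fibroblast and perineurial lists stood above the rest. T cell, macrophage, endothelial and mural lists summed to at most 53.7 CPM in any class and plate, and Cdh5, Rgs5, Cd3g, Trac and Cd2 had no read in any of the 4. The fibroblast list moved with the class, at 444 and 329 CPM in mSC-like cells against 2177 and 821 CPM for nm(R)SC-like cells. It rested mostly on the collagen genes Col1a1 and Col3a1, while Pdgfra, a defining fibroblast marker, reached 0.183 CPM at most. Dcn, another gene of the list, also moved with the class. It was at 9.96 and 4.66 CPM in mSC-like cells against 49.0 and 24.3 CPM for nm(R)SC-like cells. The cell richest in Dcn held from 42.05% to 99.2% of its reads in a class and plate. Lum reached 4.41 CPM at most. The part of the fibroblast list in the factor levels was not tested. The perineurial list lay between 214 and 327 CPM in all 4. It rested on Itgb4 (166 to 306 CPM) and Slc2a1 (13.1 to 81.8 CPM), while its marker Msln had no read, and its part in the factor levels was not tested.

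**Figure D1:**
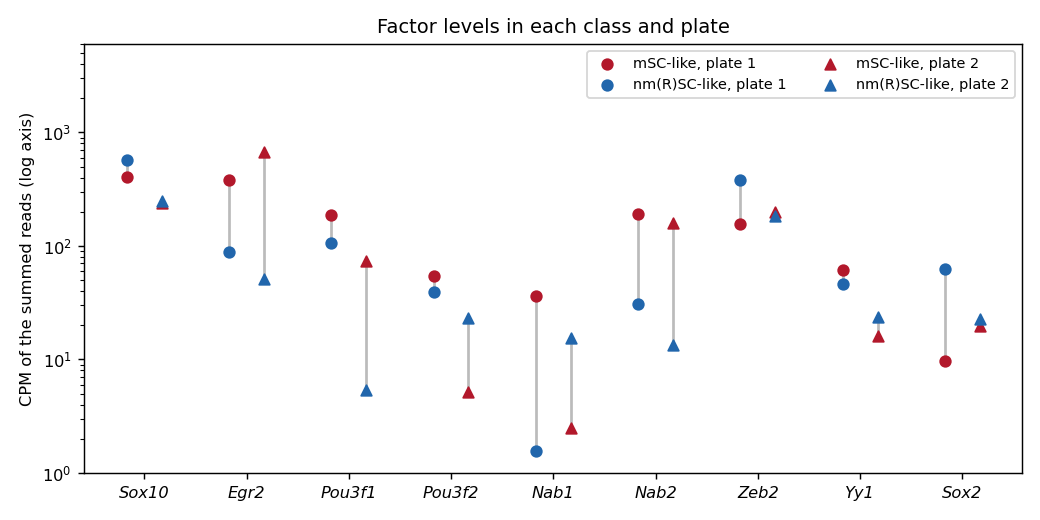
Level of 9 factors in CPM (log axis) in the summed mSC-like cells (red) and nm(R)SC-like cells (blue) on plate 1 (circles) and plate 2 (triangles), with a line joining the classes of a plate. Egr2, Nab2 and Pou3f1 lay higher in mSC-like cells of both plates, whereas the order of the classes turned between plates for Pou3f2, Nab1, Zeb2 and Yy1, and Nfatc4 is left out because it had no read.

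To learn which factors differed between myelinating and non-myelinating cells, reads were summed per plate and class and the 4 sums were tested over the whole table with edgeR's quasi-likelihood test, with plate as a block. The spread of a gene between these 2 plates leaves 1 residual degree of freedom. The test therefore also draws on the spread of the other genes, and its p-values and intervals rest largely on that shared part. They do not measure the spread of the 2 plates alone. A sum cannot tell fewer cells with a transcript from less of it per cell. Egr2 and Nab2 were higher in mSC-like cells, and none of the other 7 factors tested passed an adjusted p of 0.05. Over all 13254 genes tested, 349 were called (2.63%), of which 204 (1.54%) were higher in mSC-like cells and 145 (1.09%) lower, beside 2 of 9 factors. At an unadjusted p under 0.05 stood 3 of the 9 (Egr2, Nab2 and Pou3f1), beside 12.6% of all genes. The median log2 ratio, mSC-like over nm(R)SC-like, was 0.11 over the 9 factors and -0.14 over all genes tested.

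**Figure D2:**
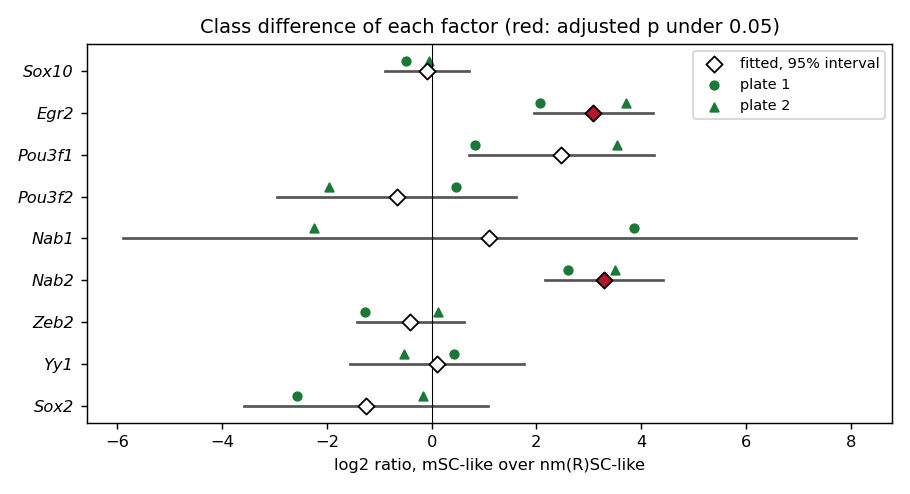
Fitted log2 ratio of mSC-like over nm(R)SC-like cells for 9 factors (diamonds, bars are 95% intervals of the fit) with the ratio of CPM within plate 1 (circles) and plate 2 (triangles). Egr2 and Nab2 (red) passed the adjusted test, the interval of Pou3f1 also lay above 0 before adjustment, and the interval of Nab1 ran from -5.88 to 8.10.

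To compare genes of unequal length, levels were also given as CPM per kb of exon. In mSC-like cells Egr2 stood first at 155 ± 61.7 CPM per kb (SD, n = 2 plates), ahead of Sox10 at 105 ± 37.9, but their plate ranges overlapped. Nab2 (59.6 ± 7.15) and Pou3f1 (33.95 ± 21.2) followed, each without overlap with its neighbours. A single cell carried much of Nab2 on plate 1, and without it that plate gave 31.6 CPM per kb, within the range of Pou3f1 (18.9 to 48.96). The ranges of the remaining factors in mSC-like cells, with means from 4.71 (Nab1) to 8.92 CPM per kb (Zeb2), overlapped from one to the next. In nm(R)SC-like cells Sox10 stood alone at the top with 133 ± 74.2 CPM per kb. Sox2 at 20.54 ± 13.6 and Egr2 at 20.53 ± 8 came next and could not be ordered, and every further neighbour down to Yy1 and Nab1 overlapped as well.

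Egr2 (chromosome 10, 67535475 to 67542188, plus strand, GRCm38) was read at 378 CPM (mSC-like) and 89.0 CPM (nm(R)SC-like) on plate 1, and at 674 and 50.5 CPM on plate 2. Both mSC-like values lay above both nm(R)SC-like values. The ratio was 4.24-fold on plate 1 and 13.3-fold on plate 2, and the fitted log2 ratio was 3.08 ± 0.49 (SE, 95% interval 1.95 to 4.22, edgeR adjusted p = 0.0190). Without the plate as a replicate block the ratio was 3.15 and the call was lost (adjusted p = 0.0522), and it was also lost with a filter of 1000 genes per cell (ratio 2.92, adjusted p = 0.0683) and with variable genes chosen over the pooled plates (ratio 2.94, adjusted p = 0.0858, edgeR).

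Egr2 was not absent from single nm(R)SC-like cells. With every cell thinned to 100000 reads, which left out 52 and 1 mSC-like and 62 and 8 nm(R)SC-like cells that were shallower, 5 or more reads of Egr2 were found in 71.0% of 100 mSC-like cells on plate 1 (exact 95% interval 61.1 to 79.6) and in 75% of 72 on plate 2 (63.4 to 84.5). In nm(R)SC-like cells the share was 24.3% of 111 (16.7 to 33.4) on plate 1 and 10% of 240 (6.51 to 14.5) on plate 2. As a background, the myelin gene Ncmap, with 96.0% and 91.7% of mSC-like cells, reached 5 reads in 9.01% (4.41 to 15.9) and 1.25% (0.259 to 3.61) of nm(R)SC-like cells, and in neither plate did this interval meet that of Egr2. The median mSC-like cell held 24.5 and 37 thinned Egr2 reads, and the median nm(R)SC-like cell 1 and 0, with single nm(R)SC-like cells at up to 401. The intervals count the cells of a class and plate as independent, although these cells share their mice. They therefore cover counting error over cells only, and not the spread between mice or plates. Reads without molecular identifiers are also not independent molecules.

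The sequence just before the first exon of the main Egr2 transcript (Egr2-201) is shown because it holds a motif of the POU factors and one of serum response factor, a regulator of genes such as Fos. It is taken from the RefSeq promoter table and spans chr10:67537619-67537868 of GRCm38.p6, plus strand, 250 bases, and capitals mark an octamer (ATGCAAAT, the POU factor motif) and downstream of it a CArG box, the element of serum response factor:
Egr2: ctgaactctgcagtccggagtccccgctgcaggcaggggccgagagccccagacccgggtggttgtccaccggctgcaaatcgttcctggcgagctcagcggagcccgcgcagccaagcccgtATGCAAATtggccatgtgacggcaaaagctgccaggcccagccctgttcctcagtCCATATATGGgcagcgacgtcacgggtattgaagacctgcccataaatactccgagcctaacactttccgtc
The octamer starts 127 and the CArG box 72 bases before the start site. Searched on both strands in the 250 bases before all 32851 start sites of the table, an octamer was found in 1.60% and a CArG box in 1.47%. Of the 5 Egr2 start sites listed, 3 had an octamer and 4 a CArG box, though 3 of these windows overlap and share both. Of the 8 factors with a promoter in the table, Egr2 alone had either motif. The EGR site GCGNGGGCG, present in 4.70% of windows, was found upstream of Nab1 and of no other factor, and the letters ACAAAG, a SOX motif present in 16.5%, upstream of Sox2 and Zeb2. The cAMP response element TGACGTCA (1.55% of windows) and the YY1 motif AANATGGCG (1.12%) were found upstream of none of the 8. A match describes these letters and shows no binding, and a missing match concerns this window alone.

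Egr2 is also a gene that many cells switch on within minutes of a stimulus, and the genes whose reads were most like it were of that kind. Over the 4 groups of plate and class, the 5 genes with the highest mean Spearman rho with Egr2 across cells were Fos (0.368), Junb (0.328), Fosb (0.310), Egr1 (0.304) and Socs3 (0.291), out of 2951 candidate genes whose median was 0.040. Fos, Junb and Fosb form the AP-1 factor, Egr1 is a relative of Egr2, and Socs3 is a feedback inhibitor of cytokine signalling. With the summed reads of 14 dissociation response genes, Fos, Junb and Fosb among them, Egr2 had a rho of 0.387 and 0.301 across mSC-like and of 0.443 and 0.321 across nm(R)SC-like cells on plates 1 and 2 (n = 100, 72, 111 and 240 cells). Fos had the most reads of the 14 (2440740 over all cells, with Junb next at 407214). The sum thus leans on Fos, already picked as most like Egr2, and is not an independent result. This link was not particular to Egr2. Pou3f1 had a rho with the same sum of 0.507 and 0.351 across mSC-like and of 0.216 and 0.101 across nm(R)SC-like cells. Over the 4 groups the mean was 0.363 for Egr2, 0.294 for Pou3f1, 0.195 for Sox2 and 0.178 for Zeb2. The other factors with reads had means from 0.013 (Nab1) to 0.125 (Nab2). The points of a group share a plate and a sort. The CArG box was found in the searched promoter windows of none of Fos, Junb, Fosb and Socs3. Egr1 had no promoter window to search. A missing match concerns these windows alone, and sequence further upstream was not searched. Between classes, the 14 genes summed to 8475 CPM (mSC-like) and 11520 CPM (nm(R)SC-like) on plate 1 and to 24510 and 12020 CPM on plate 2. Thus on plate 1 Egr2 was 4.24-fold higher in the class with the lower sum, while on plate 2 both lay higher in mSC-like cells, and the part of the dissociation response in the Egr2 levels was not tested.

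Nab2 (chromosome 10, 127660918 to 127668568, minus strand), the corepressor that binds EGR proteins and limits their action, had the largest fitted ratio of the 9 factors. It was at 190 CPM (mSC-like) and 30.5 CPM (nm(R)SC-like) on plate 1, and at 161 and 13.3 CPM on plate 2, with no overlap between classes. The log2 ratio was 2.604 and 3.50 within the plates and 3.29 ± 0.49 (SE) in the fit (95% interval 2.17 to 4.41, edgeR adjusted p = 0.0148). These sums weight cells by their depth. With each cell counted equally, Nab2 averaged 97.8 CPM (mSC-like) and 45.1 CPM (nm(R)SC-like) on plate 1, and 155.7 and 68.8 CPM on plate 2. The log2 ratio was then 1.099 and 1.167 within the plates, below that of Egr2 counted the same way (1.575 and 3.466). Shares of cells with 5 or more thinned reads were 36.0% and 27.8% in mSC-like against 19.8% and 3.75% for the nm(R)SC-like class. The intervals of the classes met on plate 1 (26.6 to 46.2 and 12.9 to 28.5) and not on plate 2 (17.9 to 39.6 and 1.73 to 7).

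A single plate 1 cell held 3190 Nab2 reads, 53.5% of those of its class, and without it the class stood at 93.0 CPM. That cell had 30290 CPM of the mSC naming markers and 9.66 CPM of the nm(R)SC ones, yet it fell into the nm(R)SC-like class at a cluster resolution of 0.8, with a filter of 1000 genes and with pooled variable genes, and Nab2 was not called there (log2 ratios 1.88, 1.95 and 1.54, edgeR adjusted p = 0.566, 0.464 and 0.633). With a filter of 2500 genes the cell stayed mSC-like, and Nab2 had a ratio of 3.43 but missed the threshold (adjusted p = 0.0542, edgeR). With the cell richest in the gene left out of each class and plate, Nab2 kept a ratio of 3.27 (edgeR adjusted p = 0.0224). That step lowered both classes, since it also left out a plate 2 cell with 45.18% of the nm(R)SC-like Nab2 reads. Exons of Nab2 overlap those of Nemp1 (151 bases) and Stat6 (40 bases) on the other strand, and whether counting used strand is not given in the sources used here. Nemp1 was at 33.0 and 33.2 CPM in mSC-like and nm(R)SC-like cells on plate 1 and at 18.8 and 13.4 CPM on plate 2, and Stat6 at 43.2, 32.2, 147 and 53.5 CPM in the same order.

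Nab1 (chromosome 1, 52457294 to 52500679, minus strand), the other corepressor of this pair, gave no stable order. It was at 36.2 CPM (mSC-like) and 1.57 CPM (nm(R)SC-like) on plate 1, and at 2.47 and 15.4 CPM on plate 2, so the classes traded places (fitted log2 ratio 1.11 ± 3.04, edgeR adjusted p = 0.973). Few cells carried it, since 5 or more thinned reads were found in 8% and 1.39% of mSC-like and in 0.901% and 2.08% of nm(R)SC-like cells. On plate 2 one cell held 76.1% of the mSC-like and another 45% of the nm(R)SC-like reads, and cluster 6, with 4 cells in that plate, stood at 649 CPM.

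Pou3f1 (chromosome 4, 124656807 to 124660655, plus strand), the POU factor of the promyelinating stage, was higher in mSC-like cells of both plates without passing the test. Its level was 189 CPM (mSC-like) and 106 CPM (nm(R)SC-like) on plate 1, and 72.9 and 5.34 CPM on plate 2. The mSC-like value on plate 2 lay below the nm(R)SC-like value on plate 1, so the classes overlapped across plates, and within plates the ratio was 1.78-fold and 13.7-fold. The fitted log2 ratio was 2.47 ± 0.77 (SE, 95% interval 0.71 to 4.24, unadjusted p = 0.0120, edgeR adjusted p = 0.185), and over the alternatives the adjusted p ran from 0.00258 (DESeq2) to 0.734. Pou3f1 reached 5 thinned reads in 44.0% and 34.7% of mSC-like cells and in 27.0% and 2.5% of nm(R)SC-like cells.

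Pou3f2 (chromosome 4, 22482780 to 22488366, minus strand), its close relative, was rarer and showed no common direction. It stood at 54.8 CPM (mSC-like) and 39.6 CPM (nm(R)SC-like) on plate 1, but at 5.19 and 23.1 CPM on plate 2 (fitted log2 ratio -0.67 ± 0.99, edgeR adjusted p = 0.917). One cell held 66.8% of the mSC-like reads on plate 1. Cells with 5 or more thinned reads made up 11% and 2.78% of the mSC-like class and 18% and 5% of the nm(R)SC-like class, the latter being higher in each plate with intervals that met.

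**Figure D3:**
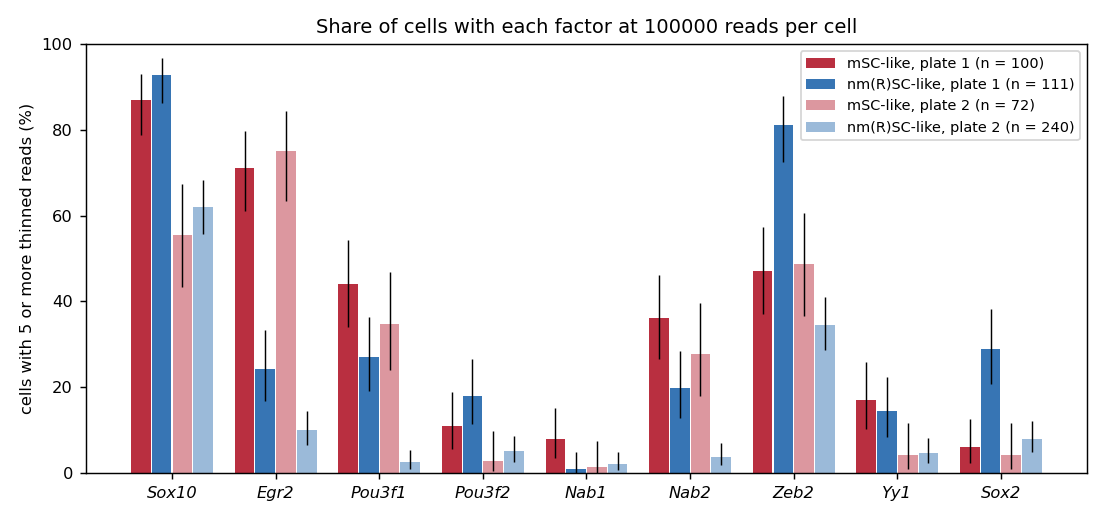
Percentage of cells with 5 or more reads of each of 9 factors after thinning to 100000 reads, by class (red mSC-like, blue nm(R)SC-like) and plate (dark plate 1, pale plate 2), with exact 95% binomial intervals as bars. Sox10 was the most widely read factor in nm(R)SC-like cells of both plates. The intervals, which count cells as independent, lay apart between classes for Egr2 in both plates. For Zeb2 they lay apart on plate 1 and met on plate 2.

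Sox10 (chromosome 15, 79154908 to 79165240, minus strand), the lineage factor, was read in both classes at like levels. It was at 403 CPM (mSC-like) and 566 CPM (nm(R)SC-like) on plate 1 and at 239 and 246 CPM on plate 2, so the plates differed more than the classes. The fitted log2 ratio was -0.09 ± 0.35 (SE, edgeR adjusted p = 0.983), and its 95% interval ran from -0.89 to 0.71, which leaves room for a difference of either sign within these bounds. After thinning, 87.0% and 55.6% of mSC-like and 92.8% and 62.1% of nm(R)SC-like cells had 5 or more reads, with intervals that met in each plate. Of 18 factors that mark other lineages, used as a background for these shares, 13 had no read in any of the 768 cells. No class and plate had a thinned cell with 5 reads of any of the 18, and the one most often read after thinning, Tbx5, was met in 0.417% of nm(R)SC-like cells on plate 2 and in none elsewhere. Myod1 was among the 13 without a read.

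Zeb2 (chromosome 2, 44983632 to 45117395, minus strand), which represses inhibitors of SC differentiation, was at 156 CPM (mSC-like) and 377 CPM (nm(R)SC-like) on plate 1, but at 200 and 184 CPM on plate 2. The share of cells followed the plate too, with 47.0% of mSC-like against 81.1% of nm(R)SC-like cells on plate 1 (intervals 36.9 to 57.2 and 72.6 to 87.9) and 48.6% against 34.6% on plate 2 (36.7 to 60.7 and 28.6 to 41.0). The fitted log2 ratio was -0.41 ± 0.44 (SE, edgeR adjusted p = 0.847).

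Yy1 (chromosome 12, 108792973 to 108820148, plus strand), a widely used zinc finger factor that can activate Egr2, stood at 61.5 and 45.7 CPM in mSC-like and nm(R)SC-like cells on plate 1 and at 15.9 and 23.4 CPM on plate 2. Its log2 ratio was 0.11 ± 0.72 (SE, edgeR adjusted p = 0.995), and it turned negative with library totals in place of size factors, so no direction can be given. Between 4.17% and 17% of cells of a class and plate reached 5 thinned reads, and 1 cell held 76.7% of the mSC-like reads on plate 2.

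Sox2 (chromosome 3, 34650405 to 34652461, plus strand), the factor of immature SCs, was at 9.64 CPM (mSC-like) and 62.0 CPM (nm(R)SC-like) on plate 1 and at 19.9 and 22.5 CPM on plate 2. It was thus lower in mSC-like cells of both plates, by a log2 ratio of -2.57 and -0.17, but the fitted value of -1.26 ± 1.01 (SE) was not called (edgeR adjusted p = 0.747). In mSC-like cells on plate 2 a single cell held 84.2% of the Sox2 reads. Shares with 5 or more thinned reads were 6% and 4.17% of mSC-like against 28.8% and 7.92% of nm(R)SC-like cells. The class intervals were apart on plate 1 (2.23 to 12.6 and 20.6 to 38.2) and met on plate 2 (0.868 to 11.7 and 4.83 to 12.1).

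Nfatc4 (chromosome 14, 55823144 to 55833943, plus strand), a calcineurin-driven partner of Sox10, had 0 reads in all 768 cells and was not tested. After thinning, 0 of 240 nm(R)SC-like cells on plate 2 allows a share of cells with a read of up to 1.25%, and 0 of 72 mSC-like cells up to 4.17%. Of its relatives, Nfatc2 had the second-largest ratio of the partner list described next.

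To see whether genes around the factors moved with the class, 12 established targets of Sox10 and Egr2, 21 partner genes and 21 genes known as brakes on myelination were read from the same fit. Among the targets 4 of 12 were higher in mSC-like cells and 0 lower, beside 1.54% and 1.09% of all genes tested, with a median log2 ratio of 1.72. Among the 4 were Mbp, which compacts the cytoplasmic faces of the myelin membrane (2.31 ± 0.36, adjusted p = 0.0168), and Ncmap, a non-compact myelin protein (8.80 ± 0.95, adjusted p = 0.00529, both edgeR). Ncmap was at 3207 and 4036 CPM in mSC-like and at 25.8 and 3.19 CPM across the nm(R)SC-like class. Mbp lost its call without the replicate block, and both genes lost theirs with 1000 genes, at resolution 0.8 and with pooled variable genes (edgeR adjusted p up to 0.216 for Mbp and 0.262 for Ncmap, whose ratio fell to 4.41). The largest ratios beyond the 4 called were those of Cdkn1c, a cell cycle inhibitor (3.51 ± 0.96, adjusted p = 0.126), and Sh3tc2, an endosomal protein needed for myelin (2.05 ± 0.52, adjusted p = 0.0984). On plate 2, 1 cell held 75.7% of the nm(R)SC-like Sh3tc2 reads, and without its richest cells edgeR called the gene, at a ratio of 3.08 (1.38 to 4.08 over the alternatives). The classes were built without these targets.

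None of the 21 partners was called by edgeR. An unadjusted p under 0.05 was met by 3 of them, beside 12.6% of all genes, and DESeq2 called 1, Sox8, beside 12.9% of all genes. The median log2 ratio was -0.03. Sox8, a close relative of Sox10, had the largest ratio, with 23.02 and 60.2 CPM in mSC-like and 0.314 and 4.24 CPM across nm(R)SC-like cells on plates 1 and 2 (adjusted p = 0.0715, edgeR). On plate 2, 1 cell held 80.9% of the nm(R)SC-like Sox8 reads, and edgeR called the gene with RLE factors, without the count filter, with thinned cells and without its richest cells, over ratios of 2.31 to 6.41 in all alternatives. Sox8 thus lay higher in mSC-like cells of both plates, where Sox10 differed little. Nfatc2, a calcium-responsive factor of the same family as Nfatc4, came next with a log2 ratio of -3.62 at levels from 0.166 to 8.87 CPM.

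Of the 21 brakes, 6 were too low to be tested and 0 of the other 15 were called by edgeR, with 4 at an unadjusted p under 0.05 and 4 called by DESeq2, which are Id3, Notch1, Hes1 and Runx2 in both cases. Over all genes these shares were 12.6% and 12.9%. Their median log2 ratio was -0.57, and 12 of the 15 were negative. The members with the largest ratios were Runx2, a factor of injured SCs (22.8 and 7.27 CPM among nm(R)SC-like cells, against 5 reads on plate 1 and 0 on plate 2 of mSC-like cells), and Hey2, a Notch effector (0.968 and 1.66 CPM, against 6 and 0 reads). In nm(R)SC-like cells on plate 2, 1 cell held 92.8% of the Runx2 reads and 1 held all Hey2 reads, and on plate 1 the richest cell held 35.2% and 62.2%. Fitted ratios of these rest on the prior count and are not given. Id3, an inhibitor of basic helix-loop-helix factors, was at 136 and 328 CPM among mSC-like cells and at 769 and 805 CPM among nm(R)SC-like cells (edgeR adjusted p = 0.0783). The receptor Notch1 had 40.6 and 60.5 CPM against 241 and 211 CPM (adjusted p = 0.0523), and its effector Hes1 had 21.2 and 36.7 CPM against 146 and 132 CPM (adjusted p = 0.0761, edgeR). In mSC-like cells on plate 2, 1 cell held 85.7% of the Notch1 reads and 1 held 76.9% of the Hes1 reads. Id3, Notch1 and Hes1 were named after their values were seen.

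**Figure D4:**
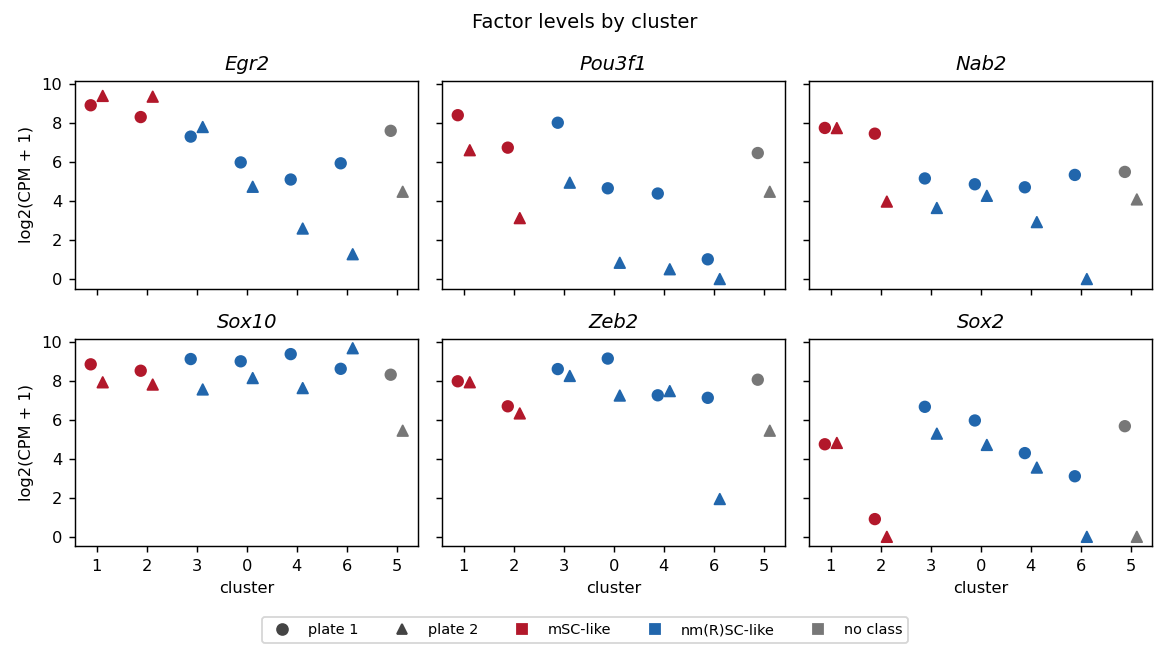
Level of 6 factors as log2(CPM + 1) in each of 7 clusters, for plate 1 (circles) and plate 2 (triangles), coloured by class, with mSC-like clusters 1 and 2 at the left and cluster 5, in no class, at the right. Egr2 was highest in clusters 1 and 2 of each plate with cluster 3 next among named clusters, and Pou3f1 in cluster 3 on plate 1 stood at the height of the mSC-like clusters.

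Within the classes, levels varied between clusters, which were also built without the factors. The values are a description, since clusters of a plate share their mice. Egr2 was at 486 and 679 CPM (plates 1 and 2) in mSC-like cluster 1, led by Emid1, Ncmap and Pllp, and at 319 and 661 CPM in mSC-like cluster 2, led by Mfap5. Among the nm(R)SC-like clusters it was highest in cluster 3, led by Ednrb and ribosomal protein genes, with 159 and 224 CPM, and lower in cluster 0 (62.7 and 25.7 CPM, led by Apoe and Scn7a) and cluster 4 (33.6 and 5.04 CPM, led by Aldh1a1).

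Pou3f1 and Sox2 were highest in cluster 3 among the nm(R)SC-like clusters of both plates. Pou3f1 stood there at 261 and 30.0 CPM, beside 24.4 and 0.786 CPM in cluster 0 and 20.04 and 0.419 CPM in cluster 4. In mSC-like cells it was at 341 and 97.4 CPM in cluster 1 and lower, at 107 and 7.76 CPM, in cluster 2. Sox2 was at 102 and 38.5 CPM in cluster 3, and in mSC-like cells it stood at 26.0 and 27.3 CPM in cluster 1 but at 0.882 CPM and 0 in cluster 2. Of the nm(R)SC-like reads, cluster 3 held 3525 of 4038 and 740 of 822 for Pou3f1, and 1373 of 2369 and 950 of 3461 for Sox2. The nm(R)SC-like level of Pou3f1 thus rests largely on the cluster with the lowest nm(R)SC marker level of its class. Nab2 was at 216 and 215 CPM in cluster 1, and at 176 and 14.8 CPM in cluster 2, which on plate 1 holds the Nab2-rich cell described before and stood at 21.6 CPM without it.

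The number of factors at 5 or more thinned reads had a median of 3 per cell in both classes on plate 1, of 2 in mSC-like and of 1 in nm(R)SC-like cells on plate 2. None of the 10 was found in 1 and 3 mSC-like cells and in 3 and 50 nm(R)SC-like cells. Egr2 and Sox10 were found together in 63.0% and 43.1% of mSC-like cells, where the product of their single shares gives 61.8% and 41.7%, and in 23.4% and 7.08% of nm(R)SC-like cells, where it gives 22.6% and 6.21%. Of the nm(R)SC-like cells with Egr2, 96.3% and 70.8% also carried Sox10. Pou3f1 and Nab2 were found together in 30.0% of mSC-like cells on plate 1, beside a product of 15.8%, and in 13.9% on plate 2, beside 9.65%.

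**Figure D5:**
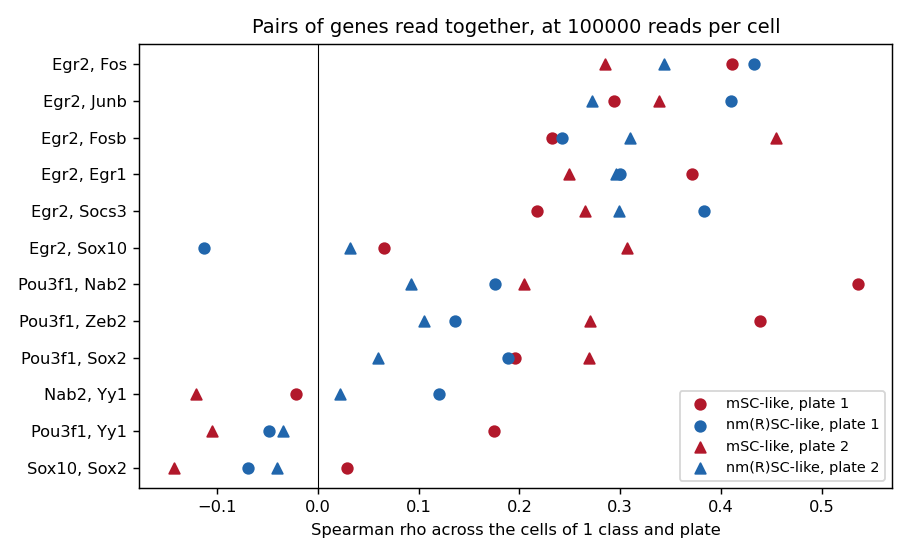
Spearman rho across the cells of 1 class and plate for Egr2 with its 5 most alike genes, for Egr2 with Sox10 and for the 3 factor pairs with the highest and the 3 with the lowest mean rho (circles plate 1, triangles plate 2, red mSC-like, blue nm(R)SC-like). Egr2 with Fos, Junb, Fosb, Egr1 and Socs3 lay between 0.217 and 0.454 in all 4 groups, while Egr2 with Sox10 spread from -0.113 to 0.307.

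Across cells of a class and plate, at 100000 reads each, the factors went together loosely. Over the 36 pairs of 9 factors, the highest mean rho over the 4 groups was that of Pou3f1 with Nab2 (0.252, from 0.092 in nm(R)SC-like cells on plate 2 to 0.536 in mSC-like cells on plate 1), followed by Pou3f1 with Zeb2 (0.237) and Pou3f1 with Sox2 (0.178). These 3 pairs were positive in all 4 groups. Without thinning, Pou3f1 with Sox2 had a mean of 0.094 with -0.011 for the nm(R)SC-like class of plate 2, and stood behind Pou3f1 with Pou3f2 (0.142). The lowest were Sox10 with Sox2 (-0.056), Pou3f1 with Yy1 (-0.003) and Nab2 with Yy1, whose 4 values from -0.121 to 0.120 cancelled. Sox10 with Egr2 had 0.066 and 0.307 in mSC-like and -0.113 and 0.032 in nm(R)SC-like cells (mean 0.073), and no order is read from values of this size. Given the number of genes per cell, the 3 highest means became 0.233, 0.220 and 0.177.

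The genes most like the other widely read factors were of different kinds. Those nearest Pou3f1 were Rps9 (mean rho 0.380), Id2 (0.363), Eef1a1 (0.360), Ptma (0.356) and Rplp0 (0.346), of which Rps9, Rplp0 and Eef1a1 belong to the translation machinery. Zeb2 shared Eef1a1 (0.308), Ptma (0.244) and Rps9 (0.240) with it, and also had Cnp, a myelin enzyme (0.269), and Pou3f1 itself (0.237). Sox10 had the weakest neighbours, with Fut8 (0.200), Chtop (0.183), Fermt2 (0.176), Hbp1 (0.176) and Clic4 (0.173). Nab2 was nearest to Emid1 (0.282), Eef1a1 (0.272), Pou3f1 (0.252), Prx, which encodes periaxin of myelinating SCs (0.252), and Gm45713 (0.241). Emid1 and Prx values in nm(R)SC-like cells on plate 2 were 0.021 and 0.089.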

How the data were processed

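The deposited values are raw counts of reads per gene and cell, which the authors made with STAR and featureCounts. The labels' processing notes name STAR 2.6.1c and GRCm38.p5, whereas the methods text names another STAR version and a human build, although the identifiers are mouse ones. The strand setting is not given in the sources used here.

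Members and gene lists were chosen with earlier results of these data known. Of the 25700 identifiers, 25587 had a symbol. Cells with 1500 or more genes were integrated by canonical correlation analysis (12 dimensions) and clustered at a resolution of 0.5 in Seurat 5.3.0 under R 4.3.3. Clusters took the name of the marker list with the higher mean standardised level if at least 3 markers reached 50 CPM. Clusters with median reads under 33.3% of the plate median stayed unnamed if none of their markers was among their 10 leading genes. So did clusters whose leading genes held more markers of the other list. Cell-cycle genes led a cluster of 28 cells, which stayed unnamed by the first of these rules, with reads at 0.313 of the plate median. Its score was higher for the nm(R)SC list (0.219 against -0.465), and 6 of those 9 markers reached 50 CPM. Doublets were not called. Single cells were sorted into wells, but whether any well received more than 1 cell was not checked. The 10 factors and the target, partner, brake and other-lineage lists took part in no clustering, and the other genes were split in 2 parts, each tested in classes built from the other, which gave 97.4% and 96.0% of 646 cells the same class. Counts summed per plate and class (4 sums) were tested with edgeR 4.0.16 (quasi-likelihood, TMM, filterByExpr at 10 counts, and the plate as block because both classes of a plate come from the same mice, 1 residual degree of freedom) and Benjamini-Hochberg adjustment over all genes, and with DESeq2 1.42.0 as an alternative. Intervals are 95%. A level of 0 reads was taken to allow 3. The test was tried on simulated counts with changed genes.

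The text names all 10 members, called genes of the lists and the 2 with the largest ratio beyond them, the 5 genes most like each factor with 5 or more thinned reads in 25% or more of a class of both plates, the 3 highest and lowest pairs, and the most and least often read factors of other lineages. Values of some listed genes that this rule takes in are not reported here.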

Additional observations from a re-analysis of the deposited data

Results flagged for a closer look

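The 28 cells in no class, which took part in no comparison, held reads of 5 factors above the 3 reads that a count of 0 allows in both plates. In plate 1 (15 cells) Sox10 was at 320.7 CPM, Zeb2 at 268 CPM, Egr2 at 195 CPM, Pou3f1 at 88.0 CPM and Yy1 at 63.2 CPM. In plate 2 (13 cells, with a median of 4081 reads) Sox10 and Zeb2 were each at 42.8 CPM, Yy1 at 32.1 CPM, and Egr2 and Pou3f1 each at 21.4 CPM, so these plate 2 values rest on a few reads. In plate 1 a single cell held 71.9% of the Egr2 reads and 71.1% of the Pou3f1 reads.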

How the results depend on the processing

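The count of 2 called factors became 1 without the replicate block (Nab2), with a filter of 2500 genes (Egr2) and at resolution 0.8 (Egr2), and 0 with a filter of 1000 genes and with variable genes chosen over the pooled plates, an alternative added after the data were seen. The other 9 alternatives gave 2 or 3. The block changed Egr2 and, among targets, left 1 of the 4 calls (Ncmap). Called targets numbered 7 with DESeq2, and 2 with the 1000 gene filter, at resolution 0.8 and with pooled variable genes. Called partners became 1 (Sox8) with DESeq2, RLE factors, no count filter, thinned cells and without each gene's richest cell. Called brakes became 4 with DESeq2, 3 without the count filter, 2 with RLE factors and without each gene's richest cell, and 1 with library totals, without integration, at resolution 0.3, with thinned cells and with classes from all genes. Over the whole table, 349 calls became 1713 with DESeq2, 527 without the count filter, 101 without the replicate block, 215 and 198 with filters of 1000 and 2500 genes and 589 without integration. Library totals shifted the median log2 ratio by -0.19 and made 47.3% of calls higher in mSC-like cells, beside 58.5%. The causes were not tested. With pooled variable genes, Egr2 was at 2.94 (adjusted p = 0.0858) and Nab2 at 1.54 (adjusted p = 0.633, edgeR), and with 2500 genes Nab2 was at 3.43 (adjusted p = 0.0542). The log2 ratio of Pou3f2 turned to 0.047 without the replicate block, and that of Yy1 to -0.064 with library totals, -1.04 with 2500 genes, -0.20 with thinned cells and -0.53 without each gene's richest cell. Of 126 refits of factor ratios, 113 kept direction and side of the threshold, a count that includes the 7 factors not called. Among the called factors, Egr2 lost its call in 3 of 14 refits and Nab2 in 4 of 14. With 1 plate left, no test is possible and no count of calls can be given, and the ratios without plate 1 or plate 2 were 3.71 and 2.07 for Egr2, and 3.50 and 2.604 for Nab2. With 2 plates, factors carried by few cells have little precision.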

Other observations

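In single cells the factors followed the myelin genes unevenly. Across cells of a class and plate, the mean rho of Egr2 with the 12 targets lay between -0.012 (Dhh) and 0.158 (Cnp). Fos, at 0.368, was picked as the highest of 2951 candidate genes, so no comparison with the targets is drawn from it. In mSC-like cells of plate 1, Pou3f1 had a rho of 0.589 with Cnp but -0.375 with S100b (n = 100 cells). In plate 2 the values were 0.272 and -0.121 (n = 72 cells). Nab2 and S100b stood at -0.423 and -0.014 in the same cells. These pairs were chosen after their values were seen, they are given without a test, and the cells of a group share a plate.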
